A study of Mus musculus with 12 samples.

Results

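Cholesterol synthesis and sterol handling was followed here through 35 genes of the mouse liver: 19 enzymes that build cholesterol, 4 genes that control the sterol-regulated transcription factor, 2 oxysterol receptors, 5 genes of sterol export and uptake, and 5 of sterol storage and transfer. A gene entered where a probe set of the array named it and no other gene; with several such probe sets, the one with the highest mean over all arrays was kept. This left 30 of the 35 genes, among 22180 genes measured in all. Acat2, Idi1, Nr1h2, Soat1 and Soat2 lacked a probe set of their own and were not analysed here, so the counts below cover 17 enzymes, 4 control genes, 1 receptor, 5 genes of export and uptake and 3 of storage and transfer.

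All 12 livers came from male mice with floxed p53 alleles (p53 fl/fl; the protocol names the allele Trp53tm1Brn/J), strain C57Bl/6N in the sample labels, 2 months old at injection. Adenovirus expressing GFP, a fluorescent protein, or Cre, the recombinase that cuts out floxed sequence, was injected at equal titre through the tail vein. Over the last 24 hours, which began 3 days later, mice either ate chow ad libitum (fed) or were fasted, which gave 4 groups of 3 arrays: Adeno-GFP fed, Adeno-GFP fasted, Adeno-Cre fed and Adeno-Cre fasted. Both control groups therefore carried the floxed alleles and an adenovirus as well. Cre can cut p53 only in the cells that its virus infects, and the share of infected cells was not analysed here. The Trp53 transcript also lacks a probe set of its own, so its loss was not analysed here either.

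Cholesterol is made from acetyl-CoA through mevalonate, isoprenoid units, squalene and lanosterol. The genes of this chain are switched on by SREBP-2, a membrane-bound transcription factor that its escort SCAP carries out of the endoplasmic reticulum when sterols are scarce, and that INSIG proteins hold back when sterols are plentiful. Oxysterols, in turn, activate LXR receptors, which raise sterol exporters and MYLIP, a ligase that removes lipoprotein receptors from the cell surface; the liver combines these routes with uptake from lipoproteins and secretion into bile.

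The stretches of DNA just before the start sites of 3 of these genes and the stretch that runs from the first bases of the exporter gene Abcg5 to the start of its partner Abcg8 are shown because the genes differed in how they followed fasting and injection. Hmgcs1, Cyp51 and Insig1 fell with fasting, and Insig1 also fell with Adeno-Cre averaged over diets. Abcg5 and Abcg8, which lie head to head, did not pass the test with fasting and fell with Adeno-Cre averaged over diets. Sequences are those of RefSeq on GRCm38.p6, written 5′ to 3′ on the strand of the gene (Abcg8 for the shared stretch). Capitals mark CCAAT, the box of the factor NF-Y, on either strand (ATTGG where it is reversed), and in Hmgcs1 also TCACCCCAC, a sterol regulatory element, the kind of site that SREBP binds. The stretches are chr13:119690101-119690350 (plus strand) for Hmgcs1, chr5:4104698-4104947 (minus strand) for Cyp51, chr5:28071162-28071411 (plus strand) for Insig1, and chr17:84683007-84683120 (plus strand) for Abcg5 and Abcg8. The stretch of Insig1 overlaps the long non-coding RNA gene Gm35223. At the shared stretch, the start sites of Abcg5 and Abcg8 have 109 bases between them. The CCAAT of that stretch is its first 5 bases, which are transcribed in Abcg5 and so lie outside those 109.
Hmgcs1: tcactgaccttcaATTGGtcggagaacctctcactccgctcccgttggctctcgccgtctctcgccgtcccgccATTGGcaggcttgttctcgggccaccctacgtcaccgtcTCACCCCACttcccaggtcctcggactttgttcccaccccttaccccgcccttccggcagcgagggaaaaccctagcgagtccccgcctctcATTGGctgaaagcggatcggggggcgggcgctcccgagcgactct
Cyp51: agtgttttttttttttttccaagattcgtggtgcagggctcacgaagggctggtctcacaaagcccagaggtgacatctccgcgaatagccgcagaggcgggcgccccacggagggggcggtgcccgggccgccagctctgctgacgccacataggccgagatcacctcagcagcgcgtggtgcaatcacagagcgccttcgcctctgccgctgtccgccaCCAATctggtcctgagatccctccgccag
Insig1: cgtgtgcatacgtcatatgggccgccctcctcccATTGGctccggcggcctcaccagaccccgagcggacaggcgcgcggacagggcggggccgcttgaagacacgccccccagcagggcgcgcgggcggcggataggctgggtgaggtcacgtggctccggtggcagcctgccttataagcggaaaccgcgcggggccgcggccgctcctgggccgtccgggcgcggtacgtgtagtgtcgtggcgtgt
Abcg5 and Abcg8: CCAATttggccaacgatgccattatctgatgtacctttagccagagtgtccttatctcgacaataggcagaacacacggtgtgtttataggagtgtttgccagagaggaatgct

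A RefSeq window from 250 bases before to 50 bases after a start site was at hand for 24 of the 30 measured members. CCAAT, searched on both strands, stood in the windows of 21 of these 24 genes, and in all 14 of the 14 synthesis enzymes with a window, against 41.1% of all 27025 genes with a window and 41.65% of those that were also tested on the arrays. Of the tested genes with a GC box (GGGCGG on either strand, the word that the factor Sp1 binds) in their window, 41.8% held CCAAT. The GC box itself was in 19 of 24 members, 38.2% of all genes and 49.5% of the tested ones. TCACNCCAC (N is any base), searched on both strands, occurred among the members in the window of Hmgcs1 alone, 137 bases before its start. It occurred in 1.44% of all genes, and TCACCCCAC is contained in it. Looser forms of the sterol element were not searched, so members without this word are not shown to lack such an element. CACGTG, the E-box, was in 6 of 24 members (Hsd17b7, Sc5d, Dhcr7, Scap, Insig1 and Abca1), 8.09% of all genes and 9.19% of the tested ones. These matches describe the windows and were not tied to the expression values by a test.

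Levels are the deposited log2 values, in which a difference of 1 is a doubling of signal, and levels of different genes are not set against each other because each rests on its own probes. Medians of the 12 arrays lay between 6.26 and 6.33, and arrays of one group correlated at 0.991 to 0.994. The 10 hepatocyte markers (among them Alb, Ttr and Apoa1) had group means of 11.49 to 13.52, far above those medians. Signal over background was not given, so members close to the array medians (Nr1h3, Mvk, Mvd and Dhcr7 among them) are not shown to be above it. The number of arrays limits the precision, and p-values rest on the spread between the 3 samples within a group, pooled over all 4 groups. In whole liver, fewer cells of a type and less RNA per cell cannot be told apart.

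**Figure D1:**
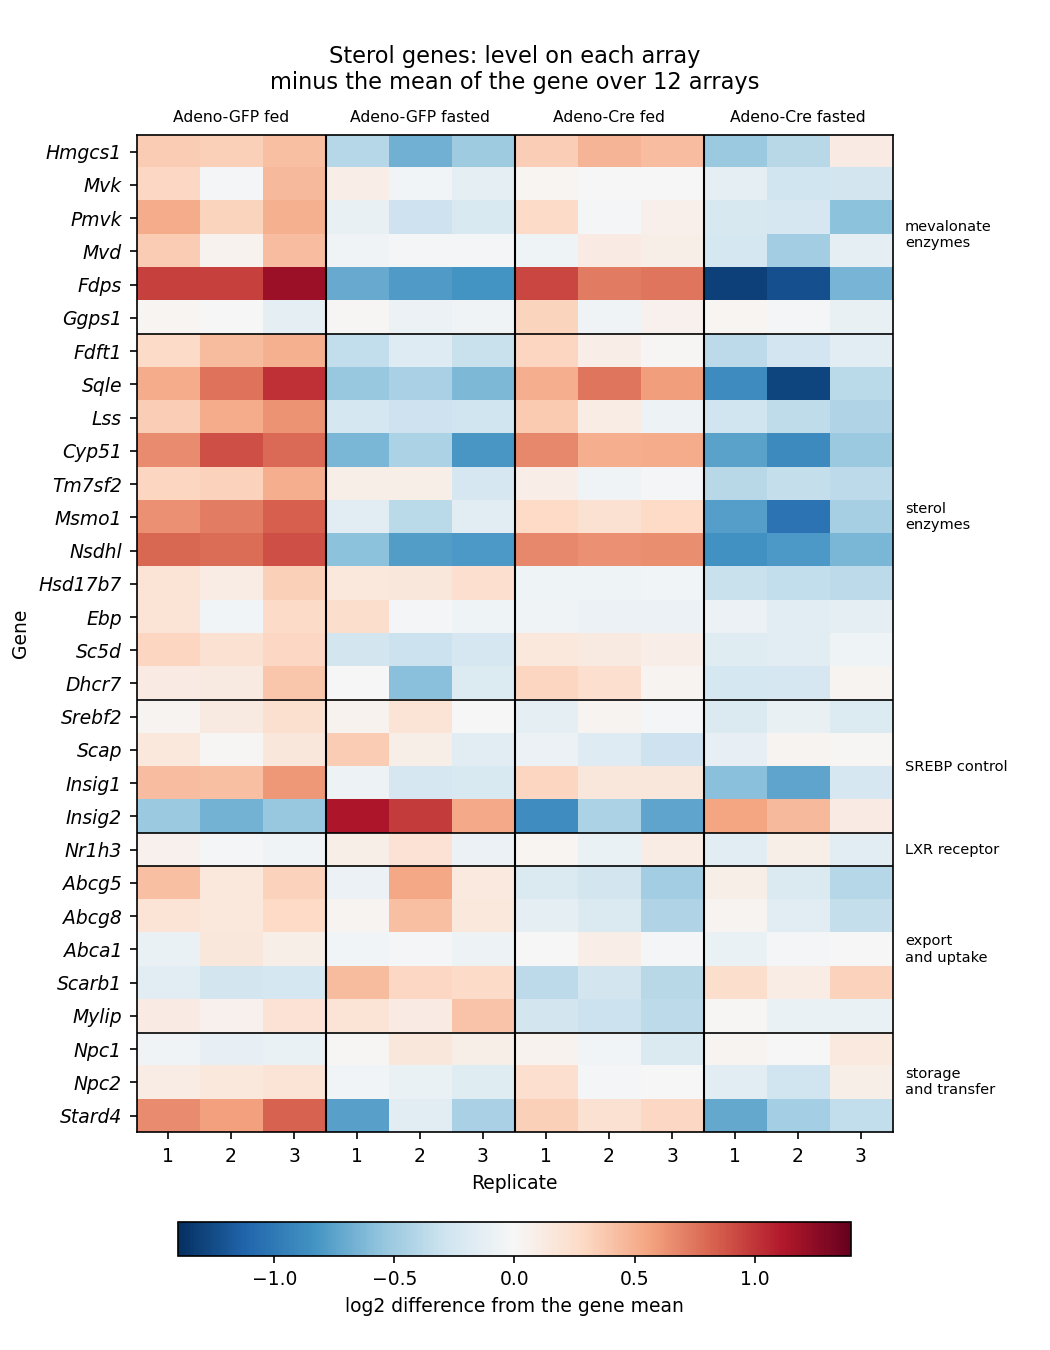
Colour gives the level of each of the 30 sterol genes on each of 12 arrays as a log2 difference from the mean of the gene, with arrays in columns by group and replicate and genes in rows by role. The rows of Fdps, Sqle, Cyp51, Msmo1, Nsdhl and Stard4 are red in both fed groups and blue in both fasted groups, and Insig2 and Scarb1 run the other way.

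Transcripts of the synthesis chain fell with fasting after either injection. After Adeno-GFP, 11 of the 17 enzymes fell and 0 rose, with a median log2 change of -0.65 where the median of all genes was 0.01. After Adeno-Cre, 7 of the 17 fell and 0 rose, with a median of -0.40 against -0.0009 for all genes. Outside the enzymes, Insig1 and the sterol carrier Stard4 fell and Insig2 and the lipoprotein receptor Scarb1 rose, after both injections. Calls are those of limma at an adjusted p under 0.05, with Benjamini-Hochberg adjustment over all 22180 genes.

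Over all 30 members, 2 rose and 13 fell after Adeno-GFP, where 1.20% of all genes rose and 1.87% fell. After Adeno-Cre 2 rose and 9 fell, where 1.50% of all genes rose and 1.17% fell. Averaged over both injections 2 rose and 15 fell, where 4.02% and 4.32% of all genes did. The 3 fed and 3 fasted livers did not overlap, with the fasted lower, for 16 members after Adeno-GFP (11.1% of all genes) and for 17 after Adeno-Cre (9.81% of all genes). The fasted livers lay wholly above the fed ones for 3 members each time (11.1% and 11.3% of all genes). Of the members, 11 passed the test after both injections, 4 (Pmvk, Fdft1, Tm7sf2 and Sc5d) after Adeno-GFP and not after Adeno-Cre, and 0 the other way round. The same split was not counted over all genes, so it is not read as a difference between the injections.

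The mean deviation of the 17 enzymes, a summary with each gene centred on its own mean, put numbers on single livers. Fed Adeno-GFP livers stood at 0.40, 0.38 and 0.55 and fasted ones at -0.20, -0.30 and -0.31. Fed Adeno-Cre livers stood at 0.30, 0.22 and 0.20 and fasted ones at -0.44, -0.50 and -0.30. Every fed liver thus lay above every fasted liver, and within each diet the mean of the Adeno-Cre group was below that of Adeno-GFP (0.24 ± 0.05 against 0.44 ± 0.09 when fed, -0.41 ± 0.10 against -0.27 ± 0.06 when fasted; SD, n = 3).

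**Figure D2:**
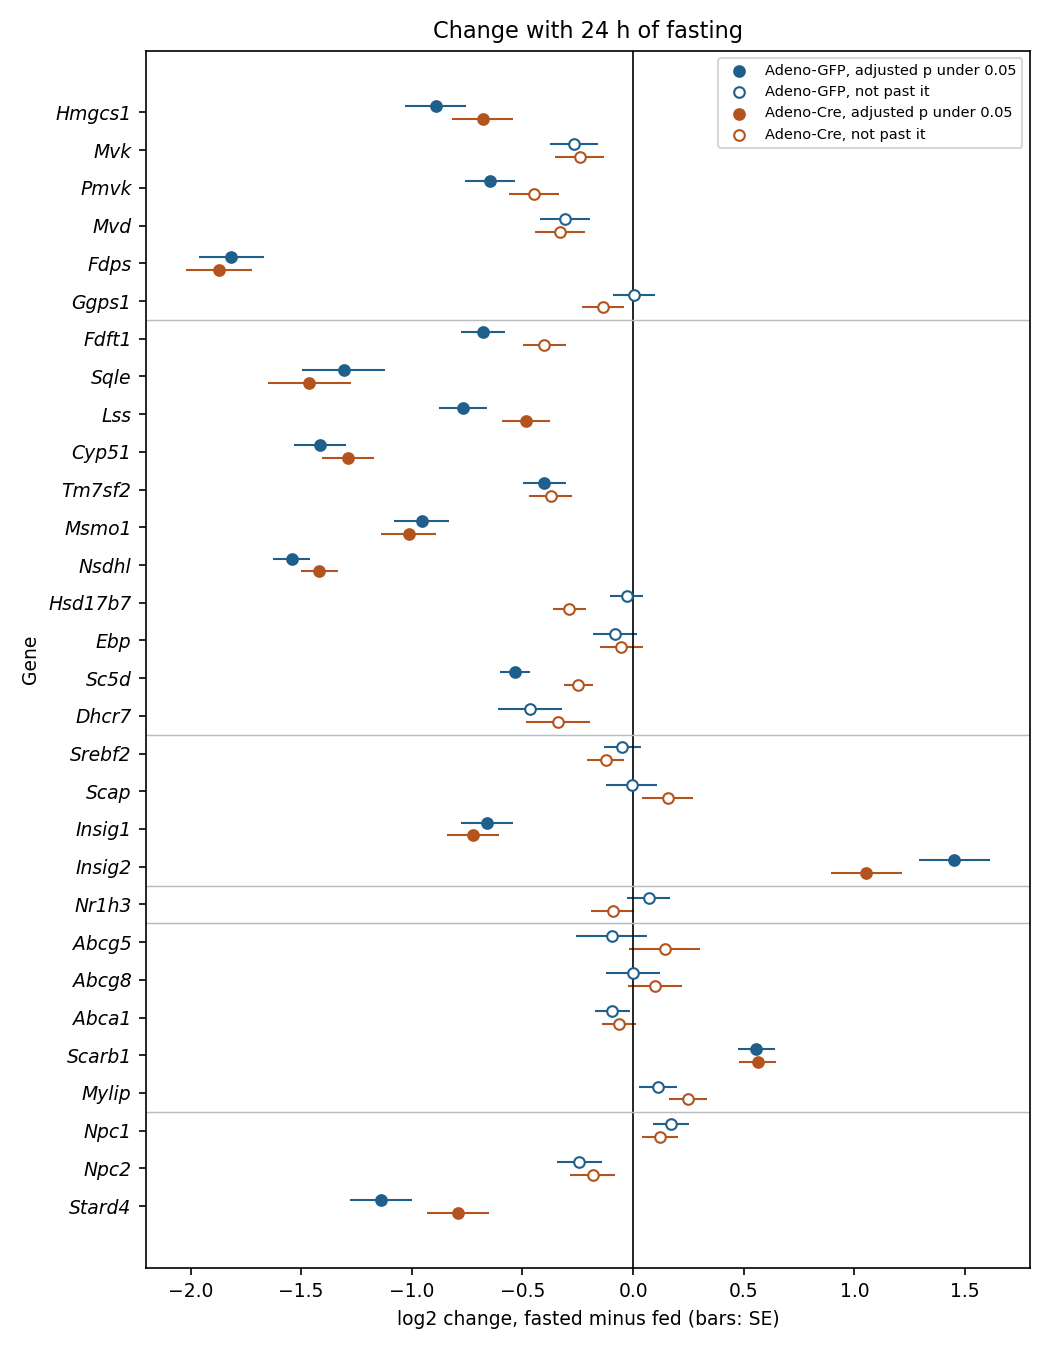
Points give the log2 change with fasting of each member after Adeno-GFP (blue) and Adeno-Cre (brown), bars are standard errors, and filled points passed an adjusted p under 0.05. The enzymes at the top lie at or left of 0, down to -1.82 and -1.87 for Fdps, and Insig2 lies farthest right at 1.45 and 1.05.

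Adeno-Cre came with smaller differences, and every one that passed the test was a fall. In fasted livers 2 of the 30 members fell, Hsd17b7 and Msmo1, where 0.482% of all genes fell and 2.26% rose. In fed livers 1 fell, Mylip, where 0.415% of all genes fell and 1.08% rose. Averaged over the diets, 7 fell (Tm7sf2, Msmo1, Hsd17b7, Insig1, Abcg5, Abcg8 and Mylip) and 0 rose, where 2.03% of all genes fell and 3.55% rose. The enzymes had medians of -0.14 when fasted and -0.23 when fed, against -0.03 and -0.02 for all genes. The fasted median ran from -0.19 to -0.09 with 1 array left out, its values nearest 0 being those without replicate 1 of fasted Adeno-GFP or replicate 2 of fasted Adeno-Cre, and the fed one ran from -0.27 to -0.15, the latter without replicate 3 of fed Adeno-GFP.

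The 3 Adeno-Cre livers lay wholly below the 3 Adeno-GFP livers for 9 members when fasted (10.9% of all genes) and for 15 when fed (11.5% of all genes), and wholly above for 1 (Sc5d, fasted; 9.96% of all genes) and 0 (8.40%). The counts of 2 and 1 calls in single diets moved with single arrays. The fasted count was 1 when replicate 1 or 2 of either fasted group or any fed array was left out, and 4 when replicate 3 of fasted Adeno-Cre was. The fed count was 0 when any fed Adeno-Cre array or replicate 1 or 3 of fed Adeno-GFP was left out, and 2 when replicate 3 of fasted Adeno-Cre or replicate 2 of fasted Adeno-GFP was. Comparisons of injection and of diet share groups (fasted Adeno-GFP livers serve in both), so their values are given side by side and not as independent results.

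**Figure D3:**
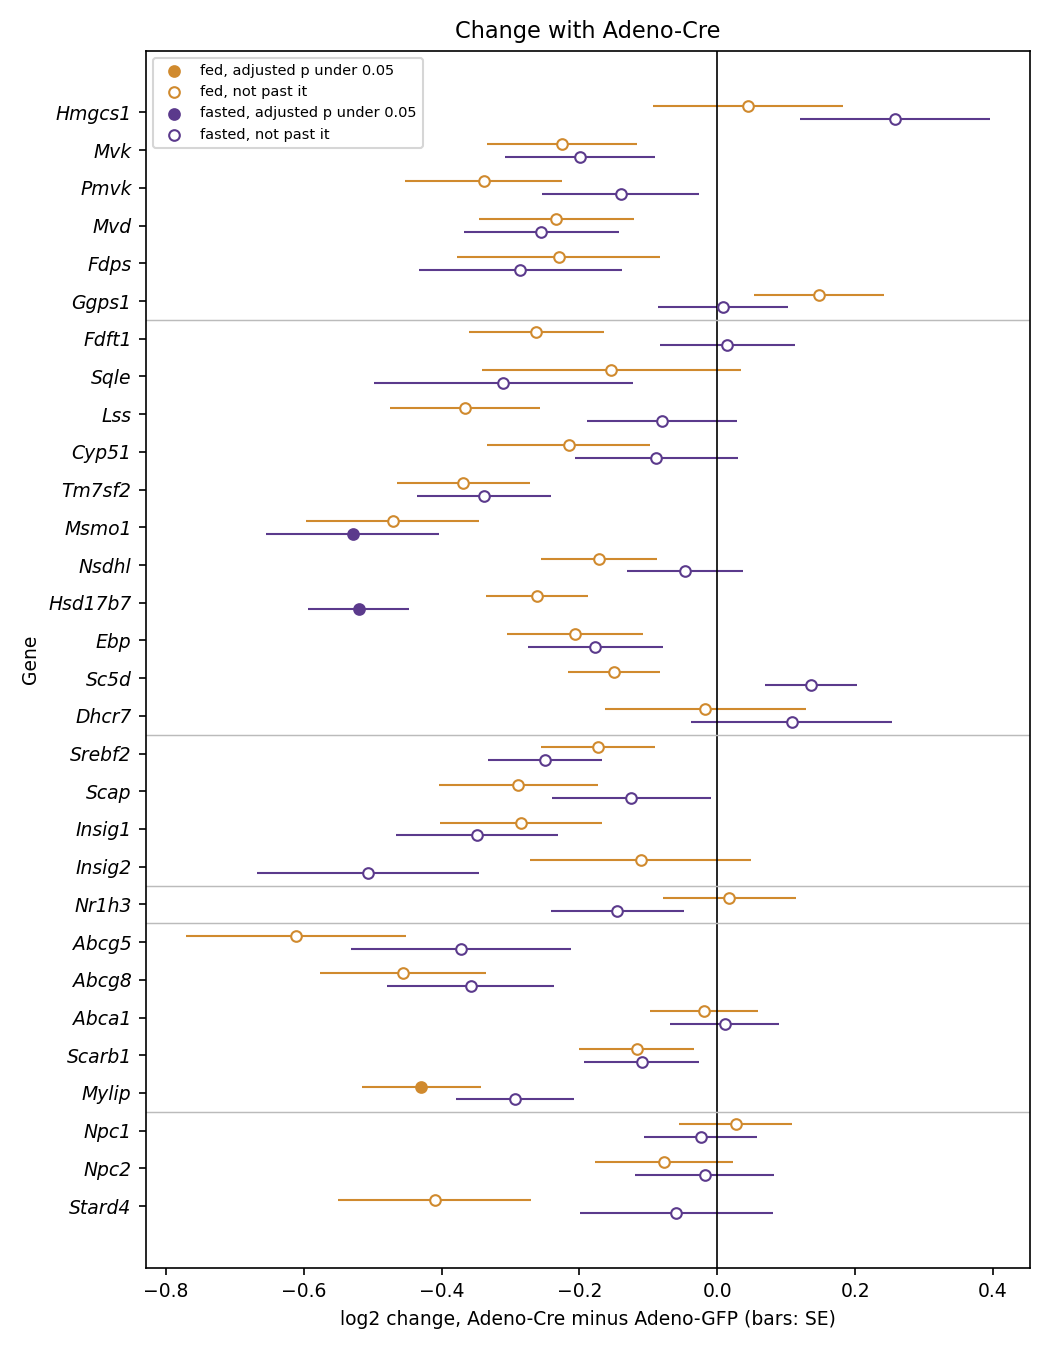
Points give the log2 change of each member with Adeno-Cre in fed (ochre) and fasted (violet) livers, bars are standard errors, and filled points passed an adjusted p under 0.05. Most points lie left of 0, the filled ones being Hsd17b7 at -0.52 and Msmo1 at -0.53 when fasted and Mylip at -0.43 when fed.

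The early, mevalonate part of the chain opens with Hmgcs1, which makes HMG-CoA from acetoacetyl-CoA in the cytosol. Hmgcs1 read 11.02, 11.00 and 11.08 in fed and 10.26, 9.99 and 10.17 in fasted Adeno-GFP livers, and 11.00, 11.14 and 11.09 in fed and 10.14, 10.27 and 10.78 in fasted Adeno-Cre livers. Fed and fasted livers were apart after both injections, although the third fasted Adeno-Cre liver stood closest to the fed ones. Hmgcs1 fell by 0.89 (SE 0.14, adjusted p = 0.00524) after Adeno-GFP and by 0.68 (adjusted p = 0.024) after Adeno-Cre. The latter call was lost without replicate 1 or 2 of fasted Adeno-Cre or any fed Adeno-Cre array (adjusted p up to 0.0927; 0.00163 to 0.103 over all alternatives). It was one of the few members with a positive difference for Adeno-Cre, 0.26 when fasted and 0.04 when fed, neither past the test.

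Mevalonate is then phosphorylated by Mvk and Pmvk and decarboxylated by Mvd. Pmvk read 8.73, 8.53 and 8.72 in fed and 8.11, 7.92 and 8.005 in fasted Adeno-GFP livers, and 8.49, 8.19 and 8.29 in fed and 7.998, 7.98 and 7.64 in fasted Adeno-Cre livers. Pmvk fell with fasting after Adeno-GFP (log2 change -0.65, SE 0.11, adjusted p = 0.0108), and its change of -0.45 after Adeno-Cre, where the groups were apart by a narrower gap, missed the threshold (adjusted p = 0.061). Mvd read 7.41, 7.10 and 7.48 in fed and 7.00, 7.03 and 7.03 in fasted Adeno-GFP livers, and 6.99, 7.17 and 7.13 in fed and 6.81, 6.57 and 6.92 in fasted Adeno-Cre livers. Fed and fasted values were apart on both sides by narrow margins. The change of Mvd passed the test averaged over injections (-0.32, SE 0.08, adjusted p = 0.0284), a call that held without replicate 3 of fasted Adeno-Cre, replicate 1 of fed Adeno-Cre or replicate 2 of fed Adeno-GFP and was lost without any of the other 9 arrays (adjusted p 0.0108 to 0.0661). Mvk, with group means of 6.58 to 7.05, had changes of -0.27 and -0.24 with fasting and passed the test in no comparison (adjusted p = 0.063 averaged over injections).

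The steps after these join isoprenoid units, and the 2 synthases measured behaved differently. Fdps makes farnesyl pyrophosphate, the last precursor shared by sterols and other isoprenoids. Fdps read 10.98, 10.98 and 11.23 in fed and 9.33, 9.23 and 9.19 in fasted Adeno-GFP livers, and 10.96, 10.76 and 10.78 in fed and 8.72, 8.80 and 9.37 in fasted Adeno-Cre livers. A wide gap separated the diets, since the lowest fed liver stood at 10.76 and the highest fasted one at 9.37. Fdps fell by 1.82 (SE 0.15, adjusted p = 6.75e-05) after Adeno-GFP and by 1.87 (adjusted p = 8e-05) after Adeno-Cre. Averaged over injections the fasted level was 3.59-fold lower, which ranked 6 from the lowest change among 22180 genes. Ggps1, which takes farnesyl pyrophosphate on to the geranylgeranyl group used on proteins, had group means of 8.87 to 9.02 and changes of 0.004 and -0.14 with fasting, past the test in no comparison.

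Squalene synthase, Fdft1, commits farnesyl groups to sterols, and squalene epoxidase, Sqle, adds the oxygen that later becomes the hydroxyl of cholesterol. Fdft1 read 11.14, 11.31 and 11.36 in fed and 10.53, 10.69 and 10.56 in fasted Adeno-GFP livers, and 11.17, 10.97 and 10.89 in fed and 10.50, 10.60 and 10.73 in fasted Adeno-Cre livers. Fed and fasted livers were apart on both sides, more narrowly after Adeno-Cre. Fdft1 fell by 0.68 (SE 0.10, adjusted p = 0.00372) after Adeno-GFP, and its change of -0.40 after Adeno-Cre missed the threshold (adjusted p = 0.0519). Sqle read 9.79, 10.03 and 10.28 in fed and 8.73, 8.81 and 8.64 in fasted Adeno-GFP livers, and 9.78, 10.01 and 9.85 in fed and 8.39, 7.98 and 8.88 in fasted Adeno-Cre livers. The fasted Adeno-Cre livers spread more widely than any other group of Sqle, with an SD of 0.45, and none reached a fed level. Sqle fell by 1.31 (SE 0.19, adjusted p = 0.00365) and 1.46 (adjusted p = 0.00286).

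Lss closes squalene epoxide into lanosterol, and Cyp51 removes the 14-methyl group of lanosterol. Lss read 7.90, 8.08 and 8.18 in fed and 7.31, 7.26 and 7.27 in fasted Adeno-GFP livers, and 7.92, 7.65 and 7.48 in fed and 7.27, 7.20 and 7.13 in fasted Adeno-Cre livers. Fasted levels were nearly alike after both injections, while fed Adeno-Cre levels reached lower than fed Adeno-GFP levels. Lss fell by 0.77 (SE 0.11, adjusted p = 0.00349) after Adeno-GFP and by 0.48 (adjusted p = 0.0363) after Adeno-Cre. The second call held without replicate 3 of fed Adeno-Cre, replicate 2 of fasted Adeno-GFP or replicate 1 or 3 of fed Adeno-GFP, and was lost without any of the other 8 arrays (adjusted p 0.028 to 0.121; from 0.0146 over all alternatives). Cyp51 read 10.45, 10.70 and 10.59 in fed and 9.16, 9.36 and 8.98 in fasted Adeno-GFP livers, and 10.47, 10.30 and 10.32 in fed and 9.05, 8.90 and 9.28 in fasted Adeno-Cre livers. Its diets were apart by a wide margin on both sides. Cyp51 fell by 1.42 (SE 0.12, adjusted p = 8.59e-05) and 1.29 (adjusted p = 0.000302).

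The demethylation of the sterol ring at carbon 4 runs through Msmo1, Nsdhl and Hsd17b7, and the 3 genes parted company. Nsdhl, the decarboxylating dehydrogenase, read 11.18, 11.16 and 11.28 in fed and 9.80, 9.60 and 9.58 in fasted Adeno-GFP livers, and 11.04, 11.02 and 11.03 in fed and 9.53, 9.58 and 9.74 in fasted Adeno-Cre livers. It followed diet with little spread and fell by 1.54 (SE 0.08, adjusted p = 5.55e-06) and 1.42 (adjusted p = 1.89e-05). Averaged over injections its fall was 2.79-fold, with the smallest p of any member (adjusted p = 1.84e-07). With Adeno-Cre, Nsdhl differed by -0.05 in fasted and -0.17 in fed livers, neither past the test.

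Msmo1, the oxidase of this complex, moved with diet and with injection. Its levels were 8.84, 8.91 and 9.03 in fed and 8.04, 7.82 and 8.05 in fasted Adeno-GFP livers, and 8.48, 8.41 and 8.48 in fed and 7.43, 7.16 and 7.73 in fasted Adeno-Cre livers. All 4 groups were apart, from fed Adeno-GFP down to fasted Adeno-Cre. Msmo1 fell with fasting by 0.96 (SE 0.12, adjusted p = 0.00211) after Adeno-GFP and by 1.01 (adjusted p = 0.0024) after Adeno-Cre. With Adeno-Cre it fell by 0.53 in fasted livers (SE 0.12, adjusted p = 0.0443) and by 0.50 averaged over diets (SE 0.09, adjusted p = 0.00543), and its difference of -0.47 in fed livers missed the threshold (adjusted p = 0.0976). The call in fasted livers alone held without replicate 3 of fasted Adeno-Cre and was lost without any of the other 11 arrays (adjusted p 0.00915 to 0.156; up to 0.159 over all alternatives).

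Hsd17b7, the keto-reductase of the same step, fell with Adeno-Cre, and its differences with diet did not pass the test. It read 9.24, 9.16 and 9.39 in fed and 9.20, 9.21 and 9.28 in fasted Adeno-GFP livers, and 8.99, 8.99 and 9.02 in fed and 8.74, 8.71 and 8.69 in fasted Adeno-Cre livers. The Adeno-GFP groups overlapped, and both Adeno-Cre groups lay below them and apart from each other. Hsd17b7 fell with Adeno-Cre by 0.52 in fasted livers (SE 0.07, adjusted p = 0.00214) and by 0.39 averaged over diets (SE 0.05, adjusted p = 0.000796), calls kept in every alternative run, and its difference of -0.26 in fed livers missed the threshold (adjusted p = 0.12). With fasting it differed by -0.03 after Adeno-GFP and by -0.29 after Adeno-Cre (adjusted p = 0.0613). The difference between these fasting changes, -0.26 (SE 0.10), did not pass the test (adjusted p = 0.64).

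Tm7sf2 reduces the double bond that the removal of the 14-methyl group leaves behind. It read 8.75, 8.77 and 8.96 in fed and 8.53, 8.53 and 8.21 in fasted Adeno-GFP livers, and 8.54, 8.40 and 8.44 in fed and 8.06, 8.11 and 8.09 in fasted Adeno-Cre livers. Both factors separated its groups, and the fed Adeno-Cre livers stood level with the fasted Adeno-GFP ones. Tm7sf2 fell by 0.35 with Adeno-Cre averaged over diets (SE 0.07, adjusted p = 0.00958) and by 0.39 with fasting averaged over injections (SE 0.07, adjusted p = 0.00442). Its fasting call after Adeno-GFP alone (-0.40, adjusted p = 0.0452) was lost without any 1 of the 12 arrays (adjusted p 0.0537 to 0.138; from 0.0168 over all alternatives).

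The last steps are run by Ebp, which shifts a ring double bond, Sc5d, which adds the ring double bond that cholesterol keeps, and Dhcr7, which reduces a neighbouring one. Sc5d read 12.09, 12.00 and 12.08 in fed and 11.53, 11.49 and 11.55 in fasted Adeno-GFP livers, and 11.93, 11.91 and 11.88 in fed and 11.62, 11.64 and 11.72 in fasted Adeno-Cre livers. The Adeno-Cre livers lay below the Adeno-GFP livers when fed and above them when fasted, in all 3 against all 3. Sc5d fell with fasting by 0.53 (SE 0.07, adjusted p = 0.00164) after Adeno-GFP, and its change of -0.25 after Adeno-Cre missed the threshold (adjusted p = 0.0765). Dhcr7 read 7.44, 7.46 and 7.71 in fed and 7.34, 6.73 and 7.14 in fasted Adeno-GFP livers, and 7.63, 7.56 and 7.37 in fed and 7.08, 7.09 and 7.36 in fasted Adeno-Cre livers. Its fed and fasted livers were barely apart, and it passed the test averaged over injections alone (-0.40, SE 0.10, adjusted p = 0.0322), a call that held without replicate 3 of either Adeno-Cre group, replicate 1 or 2 of fasted Adeno-GFP, or replicate 1 of fed Adeno-GFP, and was lost without any of the other 7 arrays (adjusted p 0.0153 to 0.0773; from 0.0147 over all alternatives). Ebp, with group means of 9.82 to 10.08, passed the test in no comparison, and its Adeno-Cre livers lay below the Adeno-GFP livers in both diets (differences -0.18 and -0.21).

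**Figure D4:**
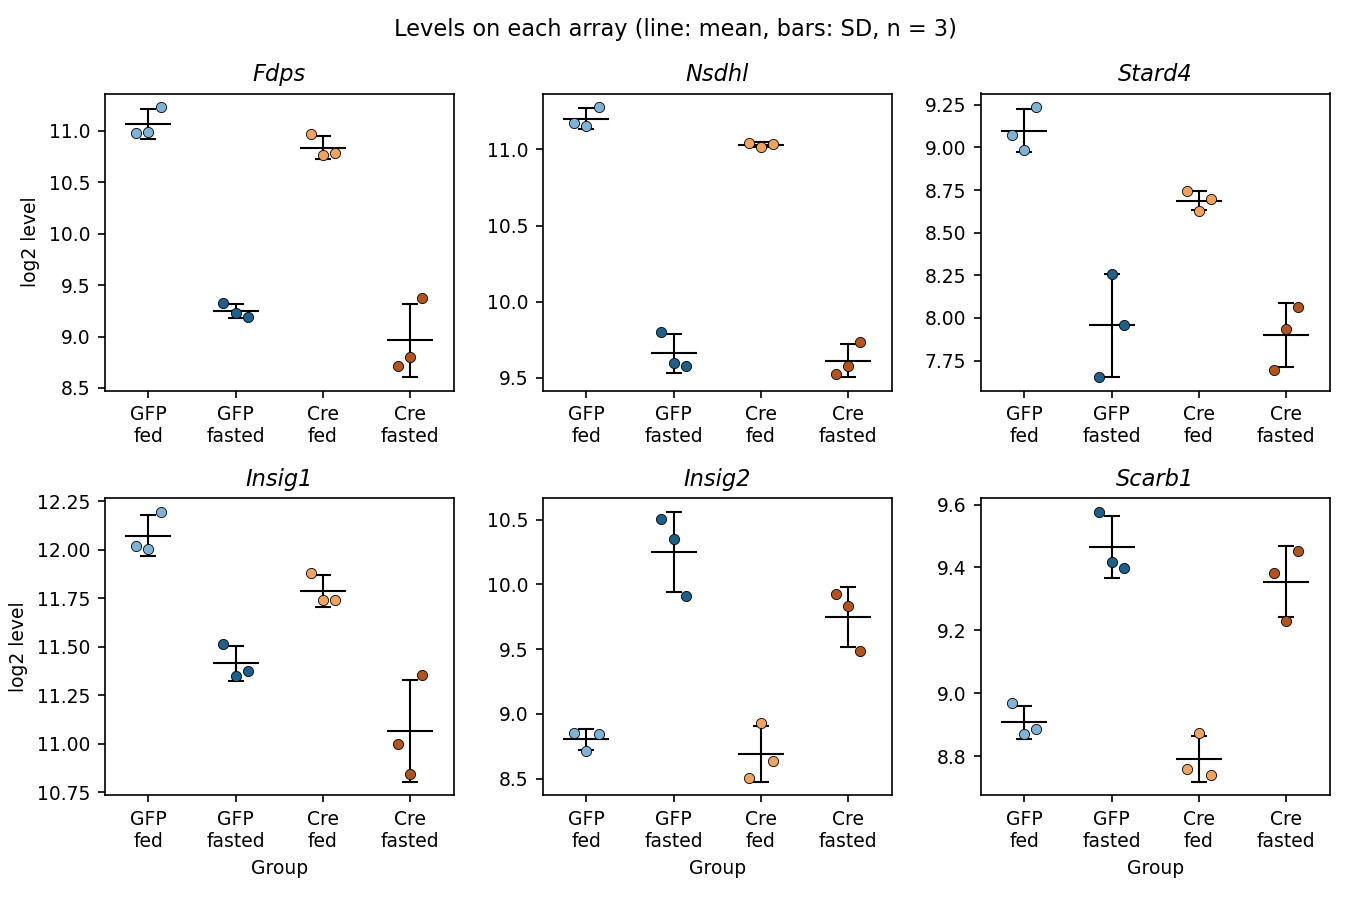
Each panel gives the log2 level of 1 gene on each array (points) by group, with the group mean (line) and SD (bars, n = 3), on an axis of its own that does not start at 0. Fdps, Nsdhl, Stard4 and Insig1 stand lower in both fasted groups and Insig2 and Scarb1 stand higher, with no overlap between fed and fasted livers of an injection.

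With fasting, the 4 control genes did not move as a group, and the 2 INSIG genes went opposite ways. With Adeno-Cre, all 4 differences were below 0 in fed livers, in fasted livers and averaged over diets; averaged, Srebf2 stood at -0.21, Scap at -0.21, Insig1 at -0.32 and Insig2 at -0.31, and Insig1 alone passed the test. Insig1, itself a target of SREBP-2, read 12.02, 12.00 and 12.20 in fed and 11.52, 11.35 and 11.38 in fasted Adeno-GFP livers, and 11.88, 11.74 and 11.74 in fed and 11.00, 10.84 and 11.35 in fasted Adeno-Cre livers. It fell with fasting by 0.66 (SE 0.12, adjusted p = 0.0116) and 0.72 (adjusted p = 0.00848), the same direction as the enzymes. The call after Adeno-Cre was lost with only the groups compared in the fit (adjusted p = 0.0566; from 0.00178 over all alternatives). With Adeno-Cre it fell by 0.32 averaged over diets (SE 0.08, adjusted p = 0.0461), a call that held without replicate 3 of fasted Adeno-Cre and was lost without any of the other 11 arrays (adjusted p 0.00557 to 0.115).

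Insig2, the form whose liver transcript is known to be lowered by insulin, read 8.85, 8.71 and 8.85 in fed and 10.50, 10.35 and 9.91 in fasted Adeno-GFP livers, and 8.51, 8.93 and 8.64 in fed and 9.92, 9.83 and 9.49 in fasted Adeno-Cre livers. All fasted livers stood above all fed livers. Insig2 rose by 1.45 (SE 0.16, adjusted p = 0.000763) after Adeno-GFP and by 1.05 (adjusted p = 0.00595) after Adeno-Cre, or 2.38-fold averaged over injections, which ranked 14 from the highest change of all genes. Fasted Adeno-Cre livers overlapped fasted Adeno-GFP livers at 1 liver each, and the difference of -0.51 (SE 0.16) missed the threshold (adjusted p = 0.13). The difference between the fasting changes, -0.40 (SE 0.23), missed it too (adjusted p = 0.733).

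The transcript of SREBP-2 itself followed neither the enzymes nor Insig1 with fasting. Srebf2 read 7.53, 7.61 and 7.71 in fed and 7.54, 7.67 and 7.49 in fasted Adeno-GFP livers, and 7.35, 7.52 and 7.45 in fed and 7.28, 7.39 and 7.29 in fasted Adeno-Cre livers. Its diets overlapped after each injection, with changes of -0.05 and -0.12 (SE 0.08 each), while its Adeno-Cre livers lay just below its Adeno-GFP livers in both diets. That difference, -0.21 averaged over diets (SE 0.06), missed the threshold (adjusted p = 0.0562). Scap, the escort, read 9.34, 9.20 and 9.35 in fed and 9.55, 9.27 and 9.04 in fasted Adeno-GFP livers, and 9.11, 9.00 and 8.90 in fed and 9.07, 9.22 and 9.20 in fasted Adeno-Cre livers. Only the fed livers of Scap were apart by injection (-0.29, adjusted p = 0.311), and its dimmer probe set gave -0.01 there.

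Of the oxysterol receptors, Nr1h3, which encodes LXRα, was measured. It read 6.83, 6.75 and 6.73 in fed and 6.85, 6.98 and 6.69 in fasted Adeno-GFP livers, and 6.80, 6.69 and 6.88 in fed and 6.62, 6.85 and 6.62 in fasted Adeno-Cre livers. All 4 groups overlapped, its changes ran from -0.15 to 0.07 in the 4 single comparisons, and its level stood close to the array medians.

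Of the 5 genes of export and uptake, 3 fell with Adeno-Cre averaged over diets (Abcg5, Abcg8 and Mylip, all known as LXR targets) and 1, Scarb1, rose with fasting. Abcg5 and Abcg8 are the 2 subunits of the transporter that moves cholesterol and plant sterols into bile. Abcg5 read 9.24, 8.96 and 9.14 in fed and 8.74, 9.36 and 8.95 in fasted Adeno-GFP livers, and 8.61, 8.56 and 8.34 in fed and 8.90, 8.62 and 8.42 in fasted Adeno-Cre livers. The fed groups were apart and the fasted groups overlapped. Abcg5 fell by 0.49 averaged over diets (SE 0.11, adjusted p = 0.0243), with -0.61 in fed (adjusted p = 0.0923) and -0.37 in fasted livers (adjusted p = 0.266). The averaged call was lost without replicate 2 of fasted Adeno-Cre, replicate 3 of fed Adeno-Cre, or replicate 1 or 3 of fed Adeno-GFP (adjusted p up to 0.0639; from 0.0114 over all alternatives).

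Abcg8 read 8.90, 8.85 and 8.98 in fed and 8.75, 9.13 and 8.85 in fasted Adeno-GFP livers, and 8.57, 8.51 and 8.29 in fed and 8.74, 8.55 and 8.37 in fasted Adeno-Cre livers. Its Adeno-Cre livers were below its Adeno-GFP livers in both diets, in the fasted ones by 0.01 between the closest pair. Abcg8 fell by 0.41 averaged over diets (SE 0.09, adjusted p = 0.0149), a call kept in every alternative run. Fasting gave changes of -0.10 and 0.14 for Abcg5 and 0.0006 and 0.10 for Abcg8, none past the test. In fasted Adeno-GFP livers replicate 2 was the highest array for both genes of the pair.

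Mylip, the ligase that marks lipoprotein receptors for breakdown, read 8.43, 8.38 and 8.53 in fed and 8.51, 8.44 and 8.73 in fasted Adeno-GFP livers, and 8.07, 8.03 and 7.96 in fed and 8.34, 8.23 and 8.23 in fasted Adeno-Cre livers. Its Adeno-Cre livers lay below its Adeno-GFP livers in both diets. Mylip fell with Adeno-Cre by 0.43 in fed livers (SE 0.09, adjusted p = 0.0315) and by 0.36 averaged over diets (SE 0.06, adjusted p = 0.00386), and its difference of -0.29 in fasted livers missed the threshold (adjusted p = 0.102). The call in fed livers alone was lost without any fed Adeno-Cre array or replicate 1 or 3 of fed Adeno-GFP (adjusted p up to 0.136; from 0.0115 over all alternatives), and also with only the groups compared in the fit (0.0587), with all probe sets (0.0855) and with the replicate block (0.0509), and the averaged one was kept in every alternative run. With fasting Mylip differed by 0.11 after Adeno-GFP and by 0.25 after Adeno-Cre, neither past the test.

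Scarb1 encodes SR-BI, through which the liver takes up cholesterol from high-density lipoprotein. It read 8.97, 8.87 and 8.89 in fed and 9.58, 9.42 and 9.40 in fasted Adeno-GFP livers, and 8.76, 8.87 and 8.74 in fed and 9.38, 9.23 and 9.45 in fasted Adeno-Cre livers. Every fasted liver stood above every fed liver. Scarb1 rose with fasting by 0.56 (SE 0.08) after both injections (adjusted p = 0.00432 after Adeno-GFP and 0.00536 after Adeno-Cre). Abca1, which loads cholesterol onto new high-density lipoprotein and is also known as an LXR target, did not go with Abcg5, Abcg8 and Mylip: its group means lay between 9.71 and 9.80, its differences with Adeno-Cre were 0.01 in fasted and -0.02 in fed livers (SE 0.08 each), and it passed the test in no comparison.

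**Figure D5:**
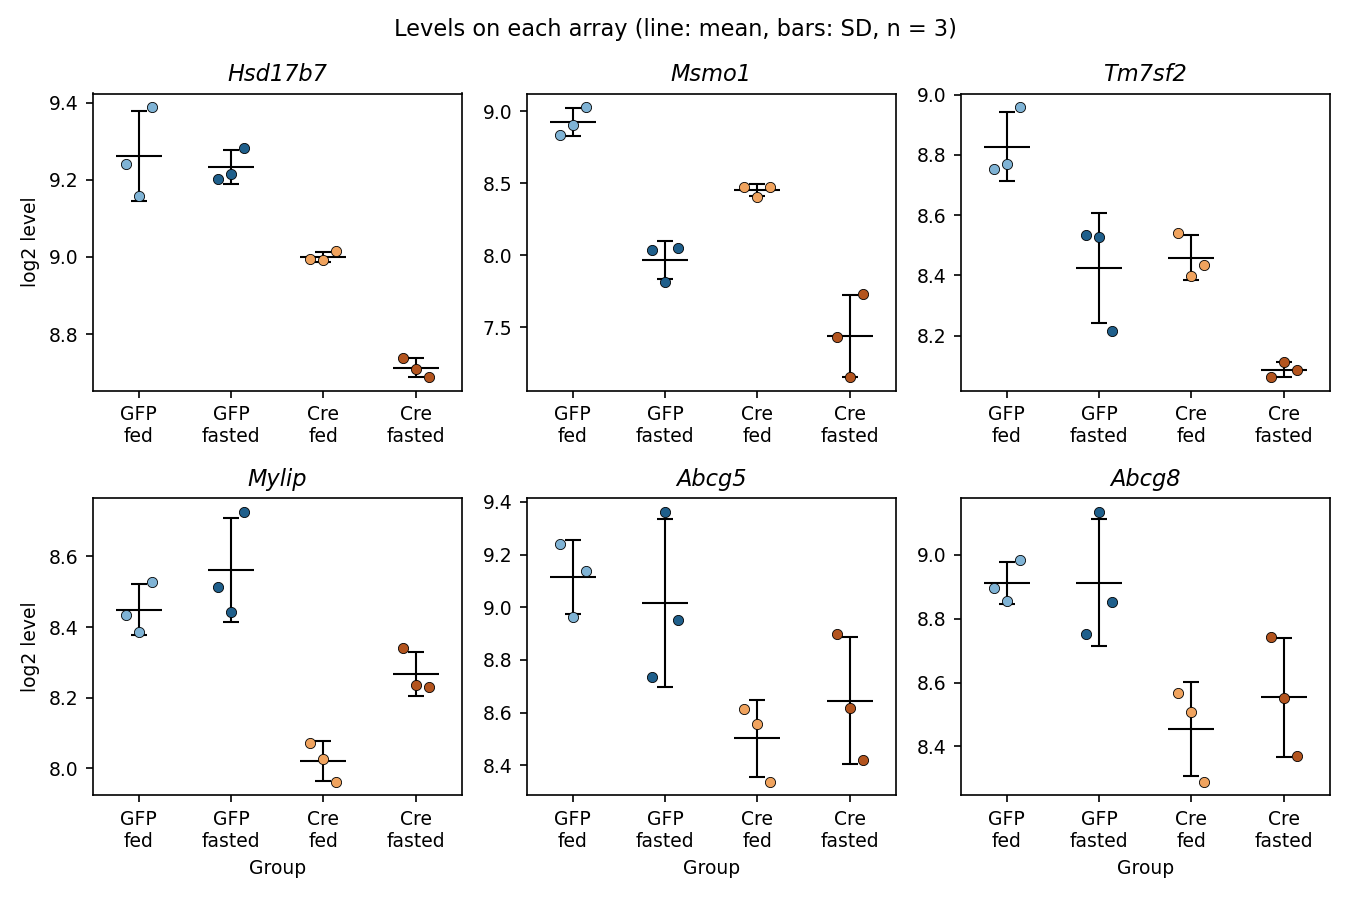
Each panel gives the log2 level of 1 gene on each array (points) by group, with the group mean (line) and SD (bars, n = 3), on an axis of its own that does not start at 0. The Adeno-Cre livers of Hsd17b7, Msmo1, Tm7sf2, Mylip and Abcg8 lie below the Adeno-GFP livers of the same diet, and those of Abcg5 do so in the fed state and overlap when fasted.

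Of the 3 measured genes of storage and transfer, Stard4, which carries sterol between membranes and is an SREBP-2 target, followed the enzymes. It read 9.07, 8.99 and 9.24 in fed and 7.65, 8.26 and 7.96 in fasted Adeno-GFP livers, and 8.74, 8.63 and 8.70 in fed and 7.69, 7.94 and 8.06 in fasted Adeno-Cre livers. Fed and fasted livers were apart after both injections, and the fed Adeno-Cre livers were below the fed Adeno-GFP livers. Stard4 fell with fasting by 1.14 (SE 0.14, adjusted p = 0.0014) and 0.79 (adjusted p = 0.0129), the latter call being lost without replicate 1 of either Adeno-Cre group (adjusted p up to 0.0594; from 0.00358 over all alternatives). Its fed difference with Adeno-Cre, -0.41, missed the threshold (adjusted p = 0.216). Npc1 and Npc2, which together release cholesterol from lysosomes, passed the test in no comparison. With fasting Npc1 had changes of 0.17 and 0.12 and Npc2 of -0.24 and -0.18, and in the Adeno-GFP livers the diets of both genes were apart.

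Whether fasting acted differently after the 2 injections was tested directly as the difference between the fasting changes, and 0 of the 30 members passed (0.00451% of all genes did). At an unadjusted p under 0.05 in limma there were 2, Sc5d (0.29, SE 0.09, adjusted p = 0.607) and Hsd17b7, against 7.56% of all genes. The genes called after Adeno-GFP and not after Adeno-Cre are therefore not shown to differ between injections: Pmvk differed by 0.20 (adjusted p = 0.808), Fdft1 by 0.28 (adjusted p = 0.7) and Tm7sf2 by 0.03 (adjusted p = 0.975). In simulated data this test recovered 28% of changes of 0.5 and 84% of changes of 1, and the members' differences ran from -0.40 to 0.35. The simulated data gave 170 calls in this test and the real data 1, so the adjusted threshold was easier to pass in the simulation. These shares therefore do not give the recovery of this test in the real data.

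The genes beside the sterol chain give a frame for these values. Among 16 fatty acid and lipogenic genes under SREBP control, 11 fell with fasting after Adeno-GFP and 6 after Adeno-Cre, with 0 rises, and medians of -1.003 and -0.40. Fasn, the fatty acid synthase, fell by 1.65 (SE 0.15, adjusted p = 0.000177) and 0.74 (adjusted p = 0.0262), and Srebf1, the sister gene of Srebf2, fell by 1.01 (adjusted p = 0.000335) after Adeno-GFP and differed by -0.24 after Adeno-Cre, short of the threshold. So Srebf1 fell with fasting in Adeno-GFP livers, where Srebf2 stood at -0.05. With Adeno-Cre, Srebf1 fell by 0.53 in fed livers (adjusted p = 0.0273) and Me1, the malic enzyme, rose by 0.56 in fasted livers (adjusted p = 0.00847).

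Of 28 other sterol genes measured, 3 fell with fasting after Adeno-GFP (Rdh11 by 1.14, Tmem97 by 0.77 and Erlin1 by 0.38), and after Adeno-Cre Rdh11 fell by 0.46 and Vldlr, a lipoprotein receptor, rose by 1.12. With Adeno-Cre, 3 rose in fasted livers: Lbr by 0.66 (adjusted p = 0.0216), Erlin1 by 0.43 and Rdh11 by 0.38. Lbr, the receptor of the nuclear lamina that also has sterol reductase activity, catalyses the same reduction as Tm7sf2, and averaged over diets the 2 genes went opposite ways, Lbr 0.60 (SE 0.10, adjusted p = 0.00312) and Tm7sf2 -0.35. Averaged over diets, Erlin1 rose as well (by 0.25), and 3 of the 28 fell: Lrp1, a receptor for lipoprotein remnants, by 0.27, Stard5 by 0.25 and Lcat, the enzyme that esterifies cholesterol in plasma, by 0.24. In fed livers 0 of the 28 passed (6 did at an unadjusted p under 0.05). Among 12 bile acid genes, averaged over injections, fasting lowered Cyp7b1, Cyp7a1 (the rate-limiting enzyme of the classic pathway; -0.65, adjusted p = 0.0142) and Abcb11 and raised Cyp8b1 and Cyp39a1, and 3 fell with Adeno-Cre averaged over diets (Hsd3b7 by 0.38, Cyp27a1 by 0.29 and Slc10a1 by 0.23). Among 9 genes that use isoprenoid units for other products, 0 passed in any of the 7 comparisons. At an unadjusted p under 0.05, 3 were higher with Adeno-Cre in fasted livers and 2 averaged over diets. With fasting after Adeno-GFP 1 was lower, and 1 had a positive difference between the fasting changes (7.56% of all genes in either direction). For the other comparisons the share of all genes at this cutoff is not given here. The unadjusted counts of these genes and of the 28 other sterol genes are therefore not set against it.

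Markers of other liver cells were read beside the members lower with Adeno-Cre. Of 11 stellate cell markers, 3 fell averaged over diets (Reln by 0.43, Ecm1 by 0.35 and Rgs5 by 0.23), 9 were lower at an unadjusted p under 0.05, and all 11 differences were below 0, with a median of -0.20 beside -0.21 for the 30 members. The log2 of their summed level ran from 12.90 to 13.01 in the Adeno-GFP livers and from 12.59 to 12.86 in the Adeno-Cre livers. Of 10 hepatocyte markers 0 passed with Adeno-Cre (3 were lower at an unadjusted p under 0.05 averaged over diets), and their summed level ran from 16.16 to 16.21 after Adeno-GFP and from 16.06 to 16.13 after Adeno-Cre. One of 5 cholangiocyte markers, Krt7, fell by 0.37, and 0 of 10 Kupffer, 11 endothelial, 9 lymphocyte and 6 neutrophil markers passed averaged over diets (2, 4, 2 and 1 were lower at an unadjusted p under 0.05). All 10 Kupffer and all 11 endothelial differences averaged over diets were below 0 as well, with medians of -0.22 and -0.15. Of the hepatocyte, cholangiocyte, lymphocyte and neutrophil differences, 8, 4, 5 and 4 were below 0 and 2, 1, 4 and 2 above it. Their medians were -0.06, -0.14, -0.02 and -0.03, where the median of all genes was -0.03. The share of all genes past an unadjusted p under 0.05 with Adeno-Cre is not given here, so the marker counts at that cutoff are not set against it. With fasting, the stellate marker Lrat fell by 0.76 after Adeno-GFP and by 0.52 after Adeno-Cre, and Col3a1 by 0.76 after Adeno-Cre. The lowest value on any array was 1.62, so a level above 0 does not show that a marker was detected. Group means of the neutrophil markers, 4.03 to 6.07, lay below the array medians. The part of other cell types in the sterol results was not tested.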

How the data were processed

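Liver RNA of 12 mice (200 ng, integrity number above 7, per the labels' protocols) was hybridised to Affymetrix arrays. The deposited values are log2 levels per probe set that the authors made with RMA, per the submitters' processing notes; the sources used here give neither the version nor the build of the probe annotation. Because RMA makes all arrays share one distribution, a shift of most genes would vanish, and dim probe sets show compressed changes.

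Of 41345 probe sets, the platform annotation named 1 gene for 23521, several for 1814, and did not list 16010. Gene identifiers of 23328 were found in a RefSeq table and 0 symbols were updated. The probe set with the highest mean stood for a gene, which left 22180 genes, 1082 of them with more than 1 probe set. The 2 probe sets of Npc1 agreed in sign except with Adeno-Cre in fed livers (0.03 for the kept one and -0.03 for the other). Those of Scap agreed in sign with Adeno-Cre in both diets and differed with fasting after both injections.

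Group means were fitted to all 12 arrays in limma 3.58.1 (R 4.3.3) with eBayes, and 7 contrasts were tested, with Benjamini-Hochberg adjustment over 22180 genes and a threshold of 0.05. The members, the gene lists, the rule for naming genes and the tests were chosen with earlier results of these data known. Levels on every array are given for members past the threshold in any contrast, for Srebf2, Insig1, Insig2, Hmgcs1, Sqle, Abcg5, Abcg8 and Nr1h3, and for the member of each role with the smallest p in a single comparison; of the other pathways up to 4 genes past the threshold are named. Labels give replicate numbers but no pairing, and not every same-numbered pair of arrays deviated together, so no block was used for the values reported. Tested on simulated data with the spread of the real genes, the fit recovered 50% of changes of 0.5 and 96% of changes of 1 for Adeno-Cre in fasted livers, 58% and 90% in fed livers, 52% and 92% for fasting after Adeno-GFP, and 36% and 86% after Adeno-Cre. As alternatives, dim genes or single arrays were left out, values were normalised again, the replicate block or a trended and robust prior was used, the fit was limited to 2 groups, and probe sets were averaged or all tested. Promoter windows were read with Python 3.11.15 and pandas 2.3.3.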

Additional observations from a re-analysis of the deposited data

Results flagged for a closer look

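For Sc5d, all 3 Adeno-Cre livers stood above all 3 Adeno-GFP livers when fasted and below them when fed. The interaction, which is the Adeno-Cre difference in fasted livers minus that in fed livers, was 0.29 (SE 0.09, limma adjusted p = 0.607). Among the genes around the sterol chain, the same crossing was seen for Rdh11 (interaction 0.69, adjusted p = 0.238), Srebf1 (0.77, adjusted p = 0.294), Fasn (0.91, adjusted p = 0.538) and Coq2 (0.38, adjusted p = 0.538). None of the 5 passed the test of the difference. They were picked for this crossing, and its share over all genes was not counted, so their number is not read as a result.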

How the results depend on the processing

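Of 78 results followed for single members, 53 of them past the threshold, 0 changed direction under any alternative. The counts of members called with fasting and with Adeno-Cre averaged over diets stayed within 1.5 times. With Adeno-Cre in fasted livers the count of 2 became 4 with dim genes left out, 1 with only the groups compared and 1 with all probe sets, and ran from 1 to 4 with 1 array left out. In fed livers the count of 1 became 6 with dim genes left out, 4 with a trended and robust prior, and 0 with the replicate block, with only the groups compared or with all probe sets, and ran from 0 to 2 with 1 array left out. The enzymes' median interaction of 0.03 became 0.12 without replicate 1 of fasted Adeno-GFP and also without replicate 2 of fed Adeno-GFP, and ran from -0.0336 (replicate 3 of fed Adeno-GFP) to 0.12 with 1 array left out. With all probe sets tested, 9 calls of single members were lost (Hmgcs1, Lss, Mvd, Tm7sf2 and Dhcr7 with fasting, and Msmo1, Insig1, Abcg5 and Mylip with Adeno-Cre), and with only the groups compared 6 were (Hmgcs1, Lss, Tm7sf2 and Insig1 with fasting, and Msmo1 and Mylip with Adeno-Cre). Normalising again lost 2 (Tm7sf2 with fasting and Insig1 with Adeno-Cre). The causes were not tested.

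Whether the replicate numbers pair the arrays was not settled: 3 of 18 same-numbered pairs deviated together with a correlation above 0.1 (-0.09 to 0.15), and 6 of 12 arrays matched their own number best. The replicate block ended 3 calls, Lss with fasting after Adeno-Cre (adjusted p = 0.0582), Tm7sf2 with fasting after Adeno-GFP (0.0771) and Mylip with Adeno-Cre in fed livers (0.0509). With it, counts were 14 for fasting after Adeno-GFP, 11 after Adeno-Cre and 17 averaged, and 2 and 7 for Adeno-Cre in fasted livers and averaged over diets.

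Signal over background was not given, which limits what can be said of members near the array medians.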
